A study of Mus musculus with 12 samples.

Results

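The comparison described here is the hippocampus of 7-month-old APP/PS1 mice given nicotine against that of 7-month-old mice given saline, with 3 libraries a group, 6 of the 12 libraries of the series. All male mice carried the APPswe/PS1dE9 transgenes on a C57BL/6 background (N9B6), a model that overproduces amyloid peptide and forms plaques. They received nicotine hydrogen tartrate or saline for 14 days from an osmotic pump under the skin, at a labelled nicotine dose of 48 mg/kg/h, a unit given here as the labels have it. No wild-type mice are among the samples, so both groups carry the transgenes and none of the values below says what the transgenes do. The other 6 libraries are 3 saline and 3 nicotine hippocampi at 18 months and are used here to ask where the younger animals differ. Libraries were assigned by their labels, and every gene of the 7-month count table was a member: 44788 genes, of which 17596 had enough counts to be tested. The labels name the libraries of a group as separate samples but do not say that each is a separate animal, so the p-values measure the spread between these samples.

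Nicotine binds nicotinic acetylcholine receptors, pentameric cation channels on neurons and glia, and through them changes neuronal firing and calcium entry. Firing neurons switch on immediate early genes such as Fos, Egr1 and Arc within minutes, through kinase cascades that act on factors bound at cAMP response elements and serum response elements, and this response is a standard read-out of recent activity in the hippocampus. Nicotine also acts on the hypothalamic-pituitary-adrenal axis, whose end product, corticosterone, enters the brain and switches on a set of genes through the glucocorticoid receptor, many of them in astrocytes and endothelial cells.

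The 7-month libraries held 25071195 to 29245972 counts. Markers of the labelled tissue were present in all 6: Neurod6, a factor of forebrain excitatory neurons, at 169 to 242 CPM (counts scaled to library size with TMM factors), Fibcd1, a CA1 marker, at 138 to 200 CPM, and Prox1, a dentate granule cell factor, at 24.5 to 78.7 CPM. Saline library 2 stood apart. It had 68.3 on the first principal component of log2 CPM, which held 45.0% of the variance, against -23.0 to -7.85 in the other libraries. Transcripts longer than 5000 nt took 30.6% of its counts and 21.9% to 22.9% elsewhere. It was the highest of the 6 libraries for 35.5% of tested genes and the lowest for 35.8%. Whether this library or the others lay nearer the tissue was not tested. Nicotine library 1 was the highest library for all 20 choroid plexus genes tested. It had the pituitary hormone gene Gh at 88.2 CPM (0.0395 to 1.5 CPM in the others). Whether neighbouring tissue came with this dissection was not tested. For some named values that either library moved strongly, the value without it is also given.

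Plin4 rose and Egr2 fell in the nicotine group, the only genes that passed an adjusted p of 0.05 in edgeR's quasi-likelihood test with Benjamini-Hochberg adjustment (2 of 17596, 0.0114%, or 0.00568% in each direction). Plin4 codes for perilipin 4, a coat protein of lipid droplets, and Egr2 for an early growth response zinc finger factor induced by neuronal activity. At an unadjusted p under 0.05, 453 genes were higher (2.57%) and 691 lower (3.93%), and the median log2 fold change of all genes was -0.01. Groups did not overlap for 1543 genes above saline (8.77%) and 1522 below it (8.65%). DESeq2 called 83 genes on the same counts (0.472%), 42 higher (0.239%) and 41 lower (0.233%), including both of these. On simulated counts in which 200 of 17326 genes were changed, edgeR recovered 81% of 2-fold and 99% of 4-fold changes. The simulated spread followed the dispersion trend alone, and no simulated library stood apart as saline library 2 did. These shares therefore need not hold for the real counts. In the real counts some genes with differences of that size did not pass, among them Timp1, Lcn2, Hif3a and Xdh.

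Plin4 (chromosome 17, 56100587 to 56109948, GRCm38) was at 6.98, 6.83 and 6.24 CPM in saline libraries 1 to 3 and at 47.0, 67.0 and 44.7 CPM in nicotine libraries 1 to 3. Every nicotine library was far above every saline library, and the saline libraries lay within a narrow range. The log2 fold change was 2.98 (SE 0.18; edgeR adjusted p = 0.0064), a 7.91-fold higher level. The call was lost, at edgeR adjusted p of 0.0655, 0.0565 and 0.0567, when saline library 2, saline library 3 or nicotine library 1 was left out, with log2 fold changes of 3.0, 2.94 and 3.06. Egr2 (chromosome 10, 67534469 to 67542188) was at 7.18, 10.5 and 10.8 CPM in saline and 1.29, 0.832 and 0.959 CPM in nicotine. The groups were widely separated here too, with all nicotine libraries near 1 CPM. Egr2 fell by 3.19 on the log2 scale (SE 0.26; edgeR adjusted p = 0.0245). This call was lost without saline library 2, saline library 3 or any single nicotine library (edgeR adjusted p of 0.0821 to 0.262), and its fold change stayed between -3.40 and -3.06 on the log2 scale. Within the 4 libraries numbered 2 and 3, which share a description prefix, the values were 3.10 for Plin4 and -3.55 for Egr2 (edgeR adjusted p of 0.234 and 0.216). The other prefix holds 1 library a group and has no test.

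Egr2 was the extreme of a group. The genes of smallest p that were lower in nicotine were, in order, Egr2, Egr1, Fos, Trib2, Arc, Npas4, Gem, Per2, Pik3c2b, Bcl6b, Nr4a1 and Celsr1, of which Egr2, Egr1, Fos, Npas4 and Nr4a1 are immediate early transcription factors, Arc an immediate early synaptic protein and Gem an activity-induced inhibitor of calcium channels. To show the control regions of factors that moved together, the 250 bases before the transcription start are printed for Egr2, Fos, Npas4 and Nr4a1, 5′ to 3′ on the coding strand, from RefSeq (GRCm38.p6). Capitals mark TGACG, the core of a cAMP response element, on either strand (read as CGTCA on the other), and, in Egr2, a CArG box, the serum response factor motif. For Egr2, start site 3 of 5 listed is shown.
Egr2 promoter (chr10:67537619-67537868, + strand): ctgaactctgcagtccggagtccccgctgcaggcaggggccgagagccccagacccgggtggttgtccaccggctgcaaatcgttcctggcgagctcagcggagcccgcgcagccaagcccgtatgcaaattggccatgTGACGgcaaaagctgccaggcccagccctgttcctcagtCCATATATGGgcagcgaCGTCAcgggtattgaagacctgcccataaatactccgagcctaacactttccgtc
Fos promoter (chr12:85473640-85473889, + strand): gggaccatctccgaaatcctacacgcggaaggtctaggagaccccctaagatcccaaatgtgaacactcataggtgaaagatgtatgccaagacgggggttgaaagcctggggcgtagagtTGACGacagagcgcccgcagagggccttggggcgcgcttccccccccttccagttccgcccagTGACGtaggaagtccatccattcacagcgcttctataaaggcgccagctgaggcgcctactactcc
Npas4 promoter (chr19:4989972-4990221, - strand): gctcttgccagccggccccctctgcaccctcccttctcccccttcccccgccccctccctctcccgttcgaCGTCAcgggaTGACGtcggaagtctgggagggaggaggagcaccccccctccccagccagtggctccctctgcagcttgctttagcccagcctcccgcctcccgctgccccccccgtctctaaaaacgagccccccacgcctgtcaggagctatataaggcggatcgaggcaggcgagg
Nr4a1 promoter (chr15:101266596-101266845, + strand): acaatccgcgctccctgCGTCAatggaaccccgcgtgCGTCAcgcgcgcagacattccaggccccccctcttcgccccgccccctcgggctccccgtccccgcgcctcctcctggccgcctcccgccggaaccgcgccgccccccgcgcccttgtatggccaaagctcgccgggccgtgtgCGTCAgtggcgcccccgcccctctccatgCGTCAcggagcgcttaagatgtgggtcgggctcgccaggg
In this Egr2 window the CArG box lies 72 to 63 bases before the start, with TGACG matches beginning 111 and 55 bases before it. Nr4a1 has 4 TGACG matches and the other windows 2 each.

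Windows were listed for 11 of the 12 immediate early factors with an unadjusted p under 0.05, all lower, and for 12 of the other factors on the list. TGACG was found in 11 of those 11 and in 6 of the other 12. It was found in 28.7% of the 11667 tested genes with a window, and in 17.8% of all 32851 windows. The palindrome TGACGTCA was in 1.55% and a CArG box in 1.47% of all windows. The palindrome was absent from the windows printed above. A CArG box was found in 1 of the 11 lower factors (Egr2) and in 1 of the other 12 (Srf), so it did not set the lower factors apart. AGAACA, the core of a glucocorticoid response element, was in 16.1% of all windows. The listed windows of Plin4, Hif3a and Fkbp5, which were higher in nicotine, held no AGAACA on either strand. A gene with several listed starts, such as Egr2, has more windows in which to match. These are matches of letters in short windows, given as a description with no test.

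Immediate early transcription factors were lower in nicotine as a group. Of 30 tested, 12 were lower and 0 higher at an unadjusted p under 0.05, against 3.93% and 2.57% of all genes, and the same 12 had groups that did not overlap (8.65% of all genes). Their median log2 fold change was -0.33, and 25 lay below 0 (51.3% of all genes). This list and the others below were chosen with earlier results of these data known, so their counts are a description and no test. Of the 12, only Egr2 passed with edgeR. DESeq2 called 10 of the 30 after adjustment, all lower: Egr2, Egr1, Fos, Egr4, Npas4, Nr4a1, Nr4a2, Nr4a3, Junb and Klf2. The number lower at an unadjusted p under 0.05 was 10 to 16 in fits that left out 1 or 2 libraries, with medians from -0.37 to -0.25. Over all genes, those with such a p in either direction ranged from 512 of 17980 to 2383 of 17684 in these fits. With all libraries they were 1144 of 17596. The 16 came from the fit with 2383, without saline library 2 and nicotine library 1. Counts from left-out fits in the lists below vary with these numbers too. The summed level of the 30 genes was 1560, 1501 and 1603 CPM in saline and 1167, 1115 and 1107 CPM in nicotine, with no overlap.

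Egr1, an early growth response factor needed for lasting synaptic potentiation, was at 189, 176 and 215 CPM in saline and 89.0, 74.4 and 62.8 CPM in nicotine. Fos, a subunit of the AP-1 factor, was at 34.4, 33.2 and 31.8 CPM in saline and 12.7, 9.74 and 7.40 CPM in nicotine. For both genes the highest nicotine library lay well below the lowest saline library. Their log2 fold changes were -1.36 (SE 0.15) and -1.73 (SE 0.19), each with an edgeR adjusted p of 0.119. Npas4, a neuron-specific factor that follows calcium entry, was at 25.3, 28.7 and 33.4 CPM in saline and 15.1, 16.9 and 12.1 CPM in nicotine. Nr4a1, an orphan nuclear receptor, was at 117, 111 and 131 CPM in saline and 75.2, 68.9 and 47.2 CPM in nicotine. Egr4, a further early growth response factor, was at 48.2, 34.2 and 64.0 CPM in saline and 19.9, 25.8 and 19.1 CPM in nicotine. None of these groups overlapped, and the fold changes of Npas4, Nr4a1 and Egr4 were -0.99, -0.91 and -1.18 on the log2 scale (SE 0.17, 0.18 and 0.23). The remaining members with an unadjusted p under 0.05 were Klf2, Junb, Nr4a2, Nr4a3, Fosb and Klf4, at -0.81 to -0.53. Not every inducible factor had such values: Jun, Jund, Srf and Crem had log2 fold changes of -0.10, 0.16, -0.04 and 0.12. Egr3, an early growth response gene like those above, was at -0.30.

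**Figure D1:**
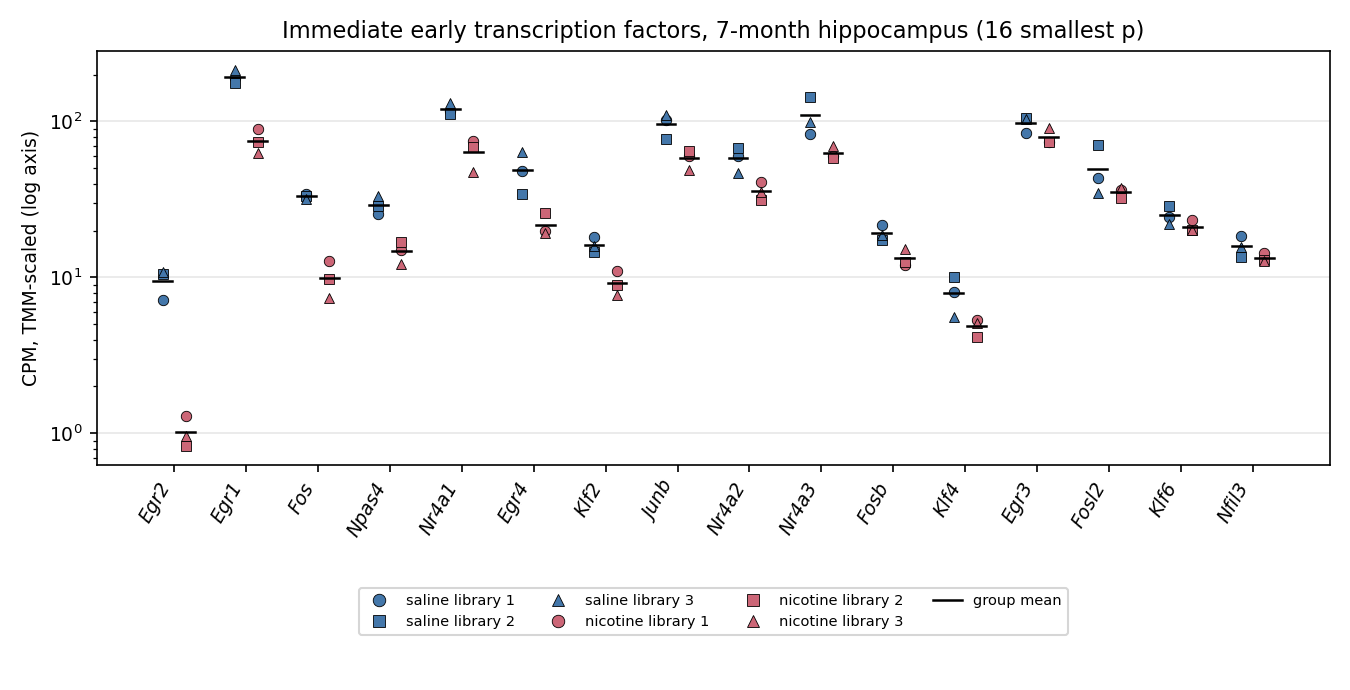
Level of the 16 immediate early transcription factors of smallest p in each 7-month library, in TMM-scaled CPM on a log axis; points are libraries, coloured by infusion and shaped by library number, and bars are group means. The 12 genes on the left, from Egr2 to Klf4, have nicotine libraries that all lie below all saline libraries, with the widest gap at Egr2 (7.18 to 10.8 against 0.832 to 1.29 CPM).

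The effector genes that neuronal activity induces, which code for synaptic, secreted and signalling proteins, were lower in part. Of 36 tested, 8 were lower and 0 higher at an unadjusted p under 0.05, against 3.93% and 2.57% of all genes. The same 8 did not overlap (8.65% of all genes), and the median log2 fold change was -0.12. Arc, which promotes removal of AMPA receptors from synapses, was at 305, 255 and 322 CPM in saline and 163, 133 and 96.4 CPM in nicotine, a log2 fold change of -1.17 (SE 0.20; edgeR adjusted p = 0.60). Cyr61, a matricellular protein, was at -0.83, Btg2, an antiproliferative factor, at -0.45, Midn at -0.46, Sik1, a salt-inducible kinase that restrains CREB coactivators, at -1.05 (-0.69 without saline library 2) and Tiparp at -0.45. Other members in common use as activity markers had smaller values, with Bdnf at -0.13, Nptx2 at 0.06 and Vgf at 0.25. Without the 2 libraries numbered 3, 3 members of the list were lower at an unadjusted p under 0.05, and without nicotine library 3 alone 5 were.

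Feedback inhibitors of the MAP kinase cascade, which are themselves switched on by it, showed the same direction in part. The list also holds the small GTPase genes Arl5b, Arl4d and Rasl11b, which are not inhibitors of the cascade. Of 22 tested, 20 lay below 0 (51.3% of all genes). At an unadjusted p under 0.05, 6 were lower and 0 higher, against 3.93% and 2.57% of all genes. For 9, the nicotine libraries lay wholly below saline (8.65% of all genes). The median log2 fold change was -0.25. The number lower was 4 without nicotine library 1 and 4 without nicotine library 2. Dusp6, the ERK-specific phosphatase, was at 59.5, 71.1 and 78.3 CPM in saline and 48.0, 44.8 and 41.9 CPM in nicotine, a log2 fold change of -0.63 (SE 0.13). Dusp1, Dusp5 and Dusp4, also MAP kinase phosphatases, were at -0.69, -0.57 and -0.50, and Spred2, an inhibitor of Raf activation, at -0.44. Spred2 was at 103 CPM in saline library 2 and at 72.1 and 75.3 CPM in the other saline libraries. Arl5b, 1 of the 6 counted as lower, was at -1.58 with all libraries and -0.53 without saline library 2, which had 11.4 CPM where the other saline libraries had 2.57 and 2.81 CPM. Dusp6 was the 1 member that DESeq2 called.

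Genes that glucocorticoids induce were higher in nicotine. Of 26 tested, 14 were higher and 2 lower at an unadjusted p under 0.05, against 2.57% and 3.93% of all genes. For 14 of them all nicotine libraries lay above all saline libraries (8.77% of all genes). The median log2 fold change was 0.53. The list is mixed in source, since its members respond to other signals as well, and only Plin4 passed with edgeR. It was chosen with earlier results of these data known and holds genes of smallest p, among them Plin4, Xdh and Hif3a. The counts above are therefore a description and no test. DESeq2 called 11 members higher (Plin4, Xdh, Hif3a, Pnpla7, Gjb6, Sult1a1, Lcn2, Fkbp5, Ezr, Map3k6 and Mt2) and Per1 lower. Between 14 and 16 members were higher at an unadjusted p under 0.05 in every fit that left out 1 or 2 libraries, with medians from 0.46 to 0.73. The summed level was 1322, 1122 and 1469 CPM in saline and 1664, 2330 and 1723 CPM in nicotine. Nicotine library 2 was the highest of the 6 libraries for 19 of the 26 genes.

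Xdh, xanthine dehydrogenase of purine breakdown, was at 9.61, 6.60 and 7.80 CPM in saline and 22.6, 38.5 and 28.1 CPM in nicotine, a log2 fold change of 1.89 (SE 0.23; edgeR adjusted p = 0.178). Hif3a, a hypoxia-inducible factor family member, was at 5.81, 3.71 and 5.65 CPM in saline and 15.2, 27.0 and 16.7 CPM in nicotine, a log2 fold change of 1.95 (SE 0.28; edgeR adjusted p = 0.341). Fkbp5, the chaperone that lowers the receptor's affinity for hormone, was at 64.9, 54.0 and 66.7 CPM in saline and 86.5, 157 and 105 CPM in nicotine, a log2 fold change of 0.91 (SE 0.22; edgeR adjusted p = 0.656). In all 3 genes the groups did not overlap and nicotine library 2 was the highest. Lcn2, the iron-carrier lipocalin 2, was at 0.234, 0.277 and 0.406 CPM in saline and 1.60, 12.3 and 1.61 CPM in nicotine, so that its log2 fold change of 4.06 (SE 0.94) was 2.38 without nicotine library 2. The metal-binding metallothioneins Mt1 and Mt2 were at 0.96 and 1.38, the cell cycle inhibitor Cdkn1a at 1.16, the phospholipase Pnpla7 at 0.77, the astrocyte connexin Gjb6 at 0.62 and the sulfotransferase Sult1a1 at 1.01 on the log2 scale.

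Some of the best known members of the list did not have such values. Sgk1, a kinase of ion transport, was at 146, 133 and 200 CPM in saline and 137, 145 and 107 CPM in nicotine, with overlapping groups. Tsc22d3, which codes for the leucine zipper protein GILZ, was at 101, 61.8 and 87.3 CPM in saline and 113, 134 and 92.7 CPM in nicotine, also overlapping. Per1, a clock gene that is both steroid-responsive and an immediate early gene, was lower, at 94.3, 109 and 94.5 CPM in saline and 73.6, 72.9 and 72.3 CPM in nicotine (log2 fold change -0.45, SE 0.10). The other member with an unadjusted p under 0.05 in this direction was Arrdc3.

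**Figure D2:**
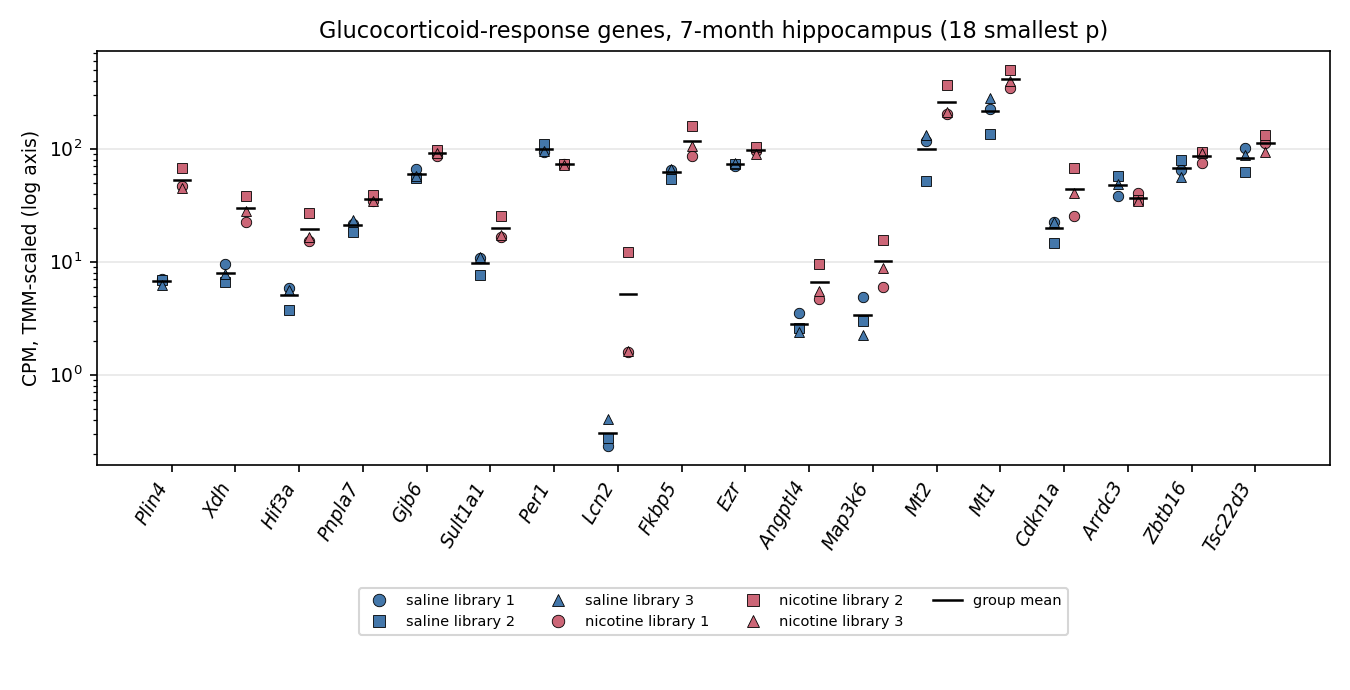
Level of the 18 glucocorticoid-response genes of smallest p in each 7-month library, in TMM-scaled CPM on a log axis; points are libraries, coloured by infusion and shaped by library number, and bars are group means. All 3 nicotine libraries lie above all 3 saline libraries for 14 of them, and nicotine library 2 is often the highest, as at Lcn2 (12.3 CPM).

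The steroid receptors had lower values. Nr3c2, the mineralocorticoid receptor, was at 117, 165 and 158 CPM in saline and 89.6, 103 and 101 CPM in nicotine, a log2 fold change of -0.58 (SE 0.15; edgeR adjusted p = 0.656). Nr3c1, the glucocorticoid receptor, was at 50.4, 85.5 and 51.9 CPM in saline and 48.1, 30.1 and 39.1 CPM in nicotine, a log2 fold change of -0.68 (SE 0.25). Neither pair of groups overlapped, but without saline library 2, the highest, the value for Nr3c1 was -0.39. Crhr1, the receptor of corticotropin-releasing hormone, was at -0.34. These 3 were the members with an unadjusted p under 0.05 among 12 receptors and steroid-handling genes, against 3.93% of all genes lower. The median log2 fold change of the 12 was -0.08. Of the 12, 1 was lower at that threshold without nicotine library 2 and 1 without nicotine library 3.

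Genes of lipid droplets and fatty acid oxidation outside the steroid list shifted less than Plin4. Of 32 tested, 4 were higher and 0 lower at an unadjusted p under 0.05, against 2.57% and 3.93% of all genes. The median log2 fold change was 0.12, and 0.06 without saline library 2. Pnpla2, adipose triglyceride lipase, was at 24.9, 16.3 and 26.2 CPM in saline and 37.0, 50.4 and 41.7 CPM in nicotine, a log2 fold change of 0.94 (SE 0.20). Lipe, hormone-sensitive lipase, was at 0.54, and Ucp2, a mitochondrial carrier, was also at 0.54. Plin5 and Lrg1 lie beside Plin4 on chromosome 17, Plin5 from 56111597 to 56117606 and Lrg1 from 56119678 to 56121946. Plin5, another droplet coat protein, was at 1.03, 1.11 and 0.998 CPM in saline and 1.29, 1.5 and 1.69 CPM in nicotine. Lrg1, a secreted glycoprotein of inflamed vessels, was at 1.24, 0.632 and 1.15 CPM in saline and 2.86, 4.44 and 2.76 CPM in nicotine, a log2 fold change of 1.73 (SE 0.33). Groups did not overlap for any of the 3 neighbours, and Plin4 was by far the most abundant in counts.

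A few clock genes separated the groups. Of 21 tested, 4 were lower and 1 higher at an unadjusted p under 0.05, against 3.93% and 2.57% of all genes. The same genes did not overlap (8.65% of all genes below saline and 8.77% above it). Without saline library 2, 7 were lower and 1 higher, while the median moved from -0.13 to -0.05. With transcript length and GC offsets it was 0.00. Per2, a period repressor, was at 39.2, 51.8 and 42.1 CPM in saline and 26.3, 24.0 and 28.9 CPM in nicotine, a log2 fold change of -0.75 (SE 0.14; edgeR adjusted p = 0.633). Rorb, a nuclear receptor that activates clock genes, was at -0.70, Per1 at -0.45 and Cry1, a cryptochrome repressor, at -0.57. Nr1d1, which codes for the repressor REV-ERB alpha, was higher, at 268, 191 and 257 CPM in saline and 294, 332 and 368 CPM in nicotine (log2 fold change 0.47, SE 0.15). The labels give a light and dark cycle but not the hour at which tissue was taken, and an hour that differed between the groups was not tested.

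Astrocyte genes did not shift as a class, but a few members were higher. Of 20 astrocyte markers, 3 were higher and 1 lower at an unadjusted p under 0.05, against 2.57% and 3.93% of all genes. The median log2 fold change was 0.03. Agt, angiotensinogen, was at 16.4, 10.2 and 12.7 CPM in saline and 24.6, 37.9 and 39.3 CPM in nicotine, a log2 fold change of 1.37 (SE 0.24; edgeR adjusted p = 0.60). Htra1, a secreted serine protease, was at 242, 190 and 243 CPM in saline and 329, 378 and 363 CPM in nicotine, a log2 fold change of 0.67 (SE 0.13). Aqp4, the water channel of astrocyte endfeet, was at -0.60 (-0.27 without saline library 2), with saline library 2 at 123 CPM and the other saline libraries at 68.3 and 70.2 CPM. Among 26 reactive astrocyte genes, Timp1, Lcn2 and Amigo2 were higher at an unadjusted p under 0.05 and none lower. Timp1, a metalloproteinase inhibitor, was at 0.434, 0.435 and 0.296 CPM in saline and 1.67, 2.22 and 1.46 CPM in nicotine, a log2 fold change of 2.18 (SE 0.30; edgeR adjusted p = 0.341). Gfap, the intermediate filament gene that marks reactive astrocytes around plaques, was at 710, 500 and 895 CPM in saline and 692, 739 and 681 CPM in nicotine, a log2 fold change of 0.00.

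**Figure D3:**
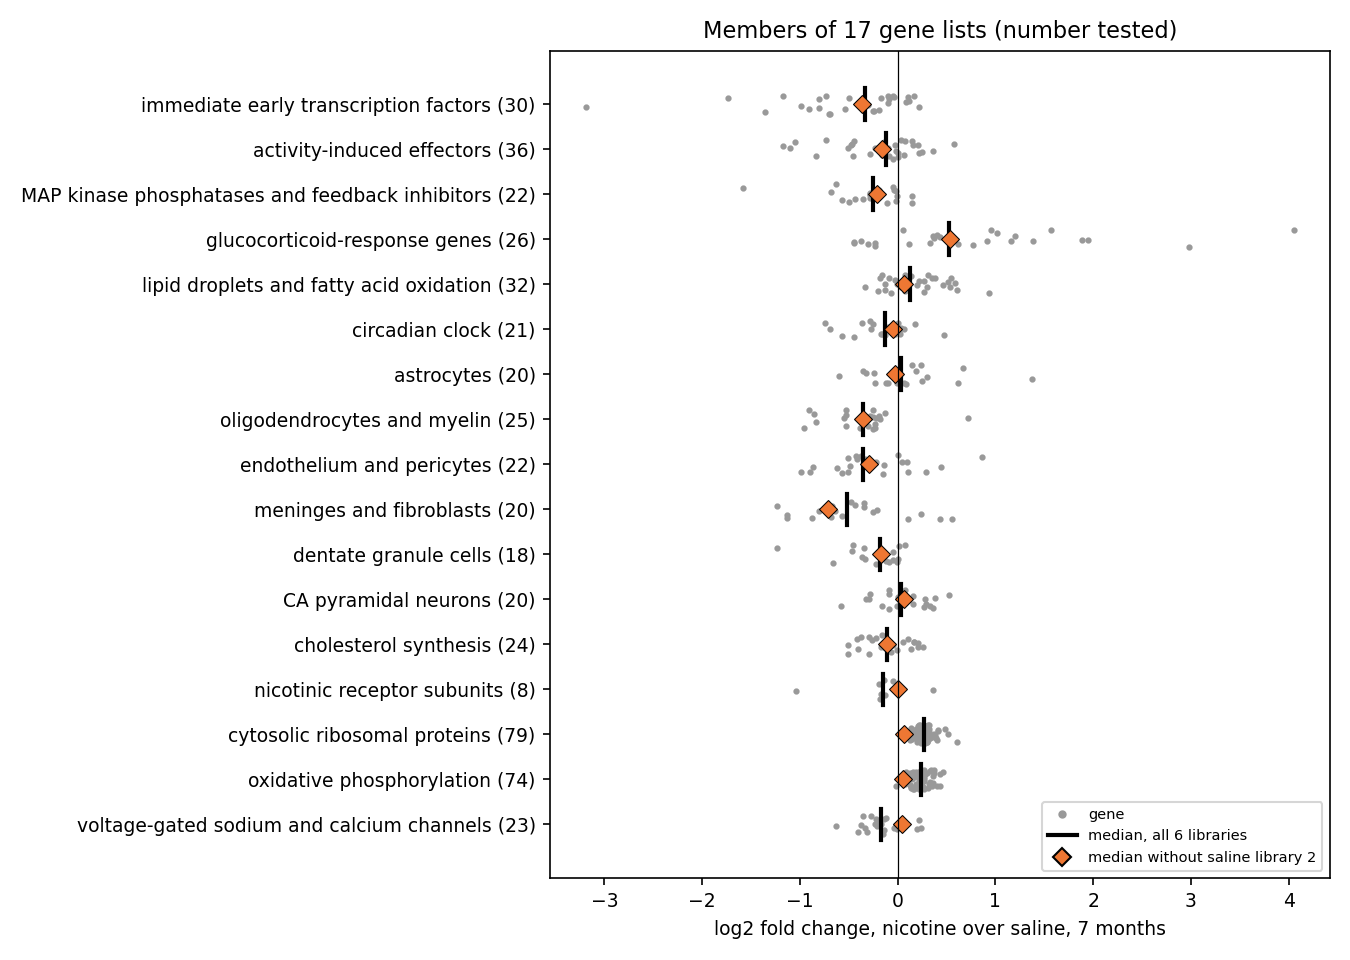
Log2 fold change of nicotine over saline at 7 months for the tested members of 17 gene lists; grey points are genes, black bars list medians over all 6 libraries and orange diamonds medians without saline library 2. Glucocorticoid-response genes (median 0.53) and immediate early factors (-0.33) stay in place without saline library 2, while the ribosomal protein median moves from 0.27 to 0.06.

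Most myelin genes had lower values in nicotine, with marked differences between libraries. In bulk tissue fewer cells of a type and less RNA per cell cannot be told apart. Of 25 oligodendrocyte and myelin genes, 24 lay below 0 (51.3% of all genes), with a median log2 fold change of -0.35. At an unadjusted p under 0.05, 8 were lower (3.93% of all genes). Aspa, the aspartoacylase of oligodendrocytes, was at 16.7, 18.3 and 22.2 CPM in saline and 12.8, 7.68 and 11.2 CPM in nicotine, a log2 fold change of -0.85 (SE 0.21). Ugt8a, which makes galactocerebroside, was at -0.96, Opalin at -0.91, Ermn at -0.83 and Pllp at -0.55. Nicotine library 2 was the lowest library for 24 of the 25. Summed myelin levels were 7387, 8199 and 9171 CPM in saline and 8481, 5310 and 6788 CPM in nicotine, so that nicotine library 1 lay inside the saline range. Without nicotine library 2, 2 members were lower at an unadjusted p under 0.05 and the median was -0.17. That fit had such a p for 512 of 17980 genes in either direction, against 1144 of 17596 with all libraries. The number of myelin genes lower was 5 without saline library 2, 4 without saline library 3, 14 without nicotine library 1 and 3 without nicotine library 3. How much white matter each dissection held was not tested.

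Endothelial and pericyte genes went in both directions. Of 22 tested, 8 were lower and 2 higher at an unadjusted p under 0.05, against 3.93% and 2.57% of all genes. The median log2 fold change was -0.36. The median was -0.03 without saline library 1 (5 lower, 2 higher) and -0.05 within the 4 libraries numbered 2 and 3 (3 lower, 3 higher). Ly6c1, a surface protein of brain endothelium, was at 36.0, 23.1 and 35.5 CPM in saline and 59.0, 57.8 and 55.1 CPM in nicotine, a log2 fold change of 0.86 (SE 0.17). Tek, the angiopoietin receptor, was at 11.3, 12.6 and 9.09 CPM in saline and 6.92, 4.40 and 6.83 CPM in nicotine, a log2 fold change of -0.86 (SE 0.22). The transporter Slco1a4 was at -0.57, Itm2a at -0.43, the vascular endothelial growth factor receptor Kdr at -0.99 and the efflux pump Abcb1a at -0.49. Kdr was at 24.2 CPM in saline library 2 and at 10.9 and 10.2 CPM in the other saline libraries, and its value without library 2 was -0.48. The number lower at an unadjusted p under 0.05 was 4 without saline library 2, 4 without nicotine library 1, and 2 without nicotine library 2 or 3. The summed level of the list overlapped between groups, at 893 to 1149 CPM in saline and 951 to 1074 CPM in nicotine.

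Meningeal and fibroblast genes had the lowest median of the cell type lists, -0.52. At an unadjusted p under 0.05, 7 of 20 were lower and 0 higher, against 3.93% and 2.57% of all genes. Without saline library 1 the median was -0.12, with 4 lower and 1 higher. The number lower was 4 without nicotine library 2 or 3. Slc22a8, an organic anion transporter, was at 23.3, 19.2 and 15.9 CPM in saline and 12.3, 11.2 and 12.1 CPM in nicotine, a log2 fold change of -0.71 (SE 0.16). Ogn, a small proteoglycan, was at -0.87, Slc47a1 at -1.13, Aebp1 at -0.81, Slc13a3 at -0.57 and the proteoglycan Lum at -0.68. Saline library 1 was the highest library for 16 of the 20 genes and nicotine library 2 the lowest for 14. Summed levels were 1130, 495 and 546 CPM in saline and 733, 436 and 552 CPM in nicotine, and the groups overlapped. The share of meninges in each dissection was not tested.

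**Figure D4:**
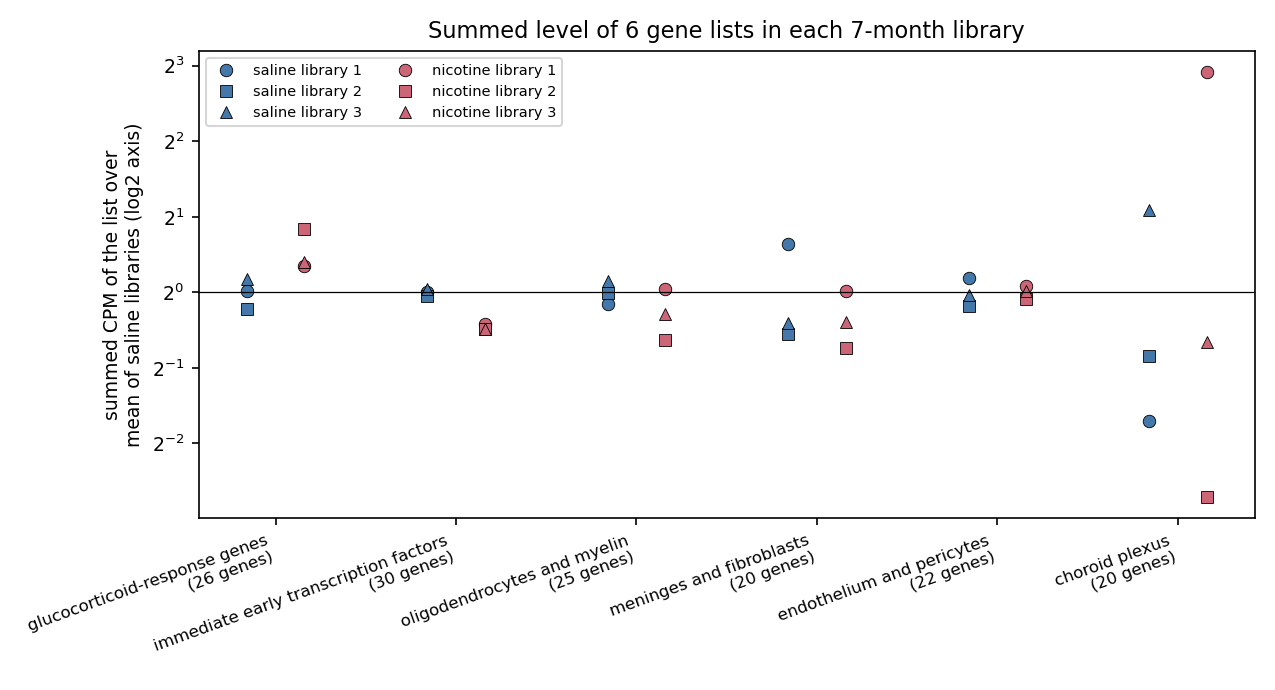
Summed CPM of 6 gene lists in each 7-month library, divided by the mean of the saline libraries, on a log2 axis; points are libraries, coloured by infusion and shaped by library number. The groups are apart for the glucocorticoid-response and immediate early lists, and overlap for myelin, meninges, endothelium and choroid plexus, where single libraries such as nicotine library 1 (choroid plexus, 7352 CPM) lie far out.

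Choroid plexus genes followed 1 library. All 20 had log2 fold changes above 0, with a median of 1.2 (48.7% of all genes lay above 0), yet none had an unadjusted p under 0.05, and nicotine library 1 was the highest library for all 20. Their summed level was 299, 544 and 2079 CPM in saline and 7352, 149 and 616 CPM in nicotine. Without nicotine library 1 the median was -1.24 and all 20 lay below 0. The glucocorticoid-response and immediate early lists had medians of 0.61 and -0.35 without that library.

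Transcript length moved with the fold change. Across 16176 genes, Spearman's rho of log2 fold change with transcript length was -0.44 with all libraries and -0.10 (16400 genes) without saline library 2. Lists of short and long transcripts followed. All 79 cytosolic ribosomal protein genes lay above 0 (48.7% of all genes). Their median was 0.27, and 0.06 without saline library 2. For 74 oxidative phosphorylation genes the medians were 0.24 and 0.06. Sodium and calcium channel genes, whose transcripts are long, had a median of -0.17 with that library and 0.05 without it, potassium channels -0.18 and -0.04, and GABA receptor subunits -0.21 and -0.08. Single genes with such values were Grin2b and Sorl1. Grin2b, an NMDA receptor subunit, was at 107 CPM in saline library 2 and at 8.08 to 16.6 CPM in the other 5, and Sorl1, the sorting receptor of the amyloid precursor, was at 204 CPM there and at 49.2 to 73.7 CPM elsewhere. The log2 fold changes of -2.14 and -1.04 for Grin2b and Sorl1 were -0.39 and -0.26 without that library.

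Nicotinic receptor subunits did not separate the groups. Of 16 subunit genes, 8 had enough counts to be tested, and 0 passed an unadjusted p of 0.05 in either direction with edgeR. Of all genes, 3.93% were lower and 2.57% higher at that threshold. Chrnb2, the main beta subunit of high-affinity brain receptors, was at 56.5, 64.1 and 60.1 CPM in saline and 54.4, 61.1 and 59.7 CPM in nicotine. Chrna4, its usual partner, was at 23.6, 21.1 and 17.8 CPM in saline and 20.8, 14.9 and 20.1 CPM in nicotine. Both pairs of groups overlapped, with log2 fold changes of -0.05 (SE 0.10) and -0.17 (SE 0.17). Chrna7, which forms homomeric calcium-permeable receptors, was at 6.18, 23.1 and 5.43 CPM in saline and 5.18, 5.70 and 5.91 CPM in nicotine, so that its log2 fold change was -1.05 with saline library 2 and -0.05 without it. In the 18-month libraries Chrna7 was at 25.4 to 30.8 CPM, nearer to saline library 2 than to the others. Among 11 chaperones and modulators of these receptors, Ly6h, a lynx-family protein that lowers surface receptor levels, was at 259, 166 and 228 CPM in saline and 288, 310 and 330 CPM in nicotine (log2 fold change 0.51, SE 0.17). Lypd6, a related protein, was at -0.35.

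Genes of amyloid handling and microglia also gave few differences. App, which here may include reads of the transgene, was at 3008, 3497 and 2964 CPM in saline and 3117, 3109 and 3111 CPM in nicotine, a log2 fold change of -0.02 (SE 0.11). Of 29 genes of the precursor family and its secretases, Sorl1 alone had an unadjusted p under 0.05. At that threshold 3.93% of all genes were lower and 2.57% higher. Trem2, the microglial lipid receptor, was at 31.9, 13.9 and 41.1 CPM in saline and 30.4, 40.6 and 27.0 CPM in nicotine, and Cst7, a cystatin of plaque-associated microglia, at 12.8, 2.45 and 10.8 CPM in saline and 6.17, 10.3 and 5.91 CPM in nicotine. Both overlapped widely. Of 30 plaque-associated genes, Lgals3, galectin 3, was the member with an unadjusted p under 0.05, at 0.76. Saline library 2 was the lowest library for 23 of the 30 (35.8% of all genes). The list median was 0.09 with all libraries and -0.10 without saline library 2. Among 18 homeostatic microglia genes, the phagocytic receptor Mertk was at 0.53, the sialic acid receptor Cd33 at -0.84 and the integrin Itgam at -0.34.

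Markers of hippocampal fields gave few differences. At an unadjusted p under 0.05, 3.93% of all genes were lower and 2.57% higher. Of 18 dentate granule cell genes, 4 were lower and 0 higher at that threshold (median -0.18). These counts moved with the libraries used: 7 were lower and 2 higher without saline library 2, 2 lower without nicotine library 1 or 3, and 1 lower within the 4 libraries numbered 2 and 3. All genes with such a p, in either direction, numbered 1144 of 17596 with all libraries and 1519 of 17900 without saline library 2. They numbered 980 of 17892 without nicotine library 1 and 609 of 17950 without nicotine library 3. The dentate median was -0.04 without saline library 2 and nicotine library 1. Trpc6, a cation channel, was at 21.9, 25.4 and 22.4 CPM in saline and 17, 15.6 and 18.1 CPM in nicotine, a log2 fold change of -0.46 (SE 0.12). Stxbp6, Npnt and Lct were at -0.34, -0.37 and -0.47. Of 20 CA pyramidal genes, 3 were higher and 0 lower (median 0.04): Crym, a thyroid hormone-binding protein, at 174, 167 and 208 CPM in saline and 240, 266 and 282 CPM in nicotine (log2 fold change 0.52, SE 0.12), Amigo2, a CA2 adhesion protein, at 0.38, and Fibcd1, of CA1, at 0.29. Without saline library 1, nicotine library 2 or nicotine library 3, 1 CA gene was higher, and without saline library 3, 5 were. Of 20 interneuron genes, 1 was higher and 0 lower at an unadjusted p under 0.05 (median 0.04). Of these 20, 8 lay below 0 (51.3% of all genes). Without saline library 2, 4 were higher (median 0.18). The 1 gene, Sst, which codes for somatostatin, was at 171, 114 and 170 CPM in saline and 200, 227 and 253 CPM in nicotine, a log2 fold change of 0.58 (SE 0.18). How much of each field a dissection held was not tested.

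Progenitor and sterol genes had mostly lower values. At an unadjusted p under 0.05, 3.93% of all genes were lower and 2.57% higher. Of 18 neurogenesis and proliferation genes, 3 were lower and 1 higher at that threshold (6 and 2 without saline library 1). The median was -0.23, and -0.10 without saline library 2. Nes, the progenitor filament nestin, also made by vessel cells, was at 16.7, 16.6 and 13 CPM in saline and 7.74, 5.90 and 9.67 CPM in nicotine, a log2 fold change of -0.99 (SE 0.21). Igfbpl1, a marker of new neurons, was at 1.17, 4.39 and 3.58 CPM in saline and 0.818, 0.554 and 0.575 CPM in nicotine, and Sox11, a factor of immature neurons, was at -0.44. Hes5, a Notch target of radial glia, was at 0.95, with nicotine library 3 at 19.9 CPM and the other nicotine libraries at 8.49 and 10.9 CPM. Of 24 cholesterol synthesis genes, 5 were lower and 0 higher (median -0.11). Without nicotine library 2, the lowest library for 11 of them, 2 were lower (median -0.07), and 2 without nicotine library 3 and 3 without saline library 1 were. Sc5d, Lss and Cyp51, enzymes of the pathway, had log2 fold changes of -0.51, -0.41 and -0.30.

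The remaining genes of smallest p belonged to no single list. Higher in nicotine, after Plin4, Xdh, Timp1 and Hif3a, came Erdr1, Pnpla7, Agt, Gjb6, Itgad, Lrg1, Lhfp and Tekt4. Erdr1 lies in a repeated part of the sex chromosomes where copies can share reads, so that its log2 fold change of 1.08 is uncertain. Itgad, an integrin of macrophages, was at 0.534, 0.474 and 0.739 CPM in saline and 1.64, 2.77 and 1.65 CPM in nicotine, a log2 fold change of 1.78 (SE 0.33). Lhfp was at 0.66 and Tekt4, a tektin of cilia, at 1.79. Lower in nicotine, Trib2, a pseudokinase, was at 41.3, 40.2 and 43.2 CPM in saline and 27.5, 25.9 and 27.9 CPM in nicotine, a log2 fold change of -0.62 (SE 0.10; edgeR adjusted p = 0.547). The Trib2 libraries lay close together within each group, and the groups were apart. Gem was at 4.14, 5.06 and 4.91 CPM in saline and 2.32, 2.14 and 1.69 CPM in nicotine, a log2 fold change of -1.20 (SE 0.20). The lipid kinase Pik3c2b, the transcriptional repressor Bcl6b and the cadherin Celsr1 were at -0.89, -1.13 and -0.98.

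Against the 18-month animals, Egr2 was the one gene whose nicotine effect differed between the ages at an adjusted p of 0.05 (edgeR's interaction test, 1 of 19171 genes, 0.00522%). At 18 months Egr2 was at 9.94, 7.18 and 8.73 CPM in saline and 5.91, 4.91 and 6.27 CPM in nicotine, a log2 fold change of -0.60, so that the groups were apart there too but by far less. The difference of the effects was -2.59 (SE 0.30; edgeR adjusted p = 0.0346). It did not pass in 10 of the 12 fits that left out 1 library (adjusted p of 0.0512 to 0.246), and passed without saline library 1 or 2 of 7 months. Egr2 levels in the 7-month saline libraries were like those of the older saline mice, and its levels in nicotine were lower at 7 months. The 2 ages come from separate sets of libraries, so age and library set cannot be told apart. Plin4 was at 7.13, 11.4 and 13.2 CPM in saline and 23.6, 24.9 and 32.4 CPM in nicotine at 18 months, again without overlap, a log2 fold change of 1.35 (edgeR adjusted p = 0.0932, where 8 of 18196 genes passed at that age, 0.044%). For Plin4 the difference of the effects was 1.63 (SE 0.30; edgeR adjusted p = 0.393).

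Of the 30 immediate early factors, 13 had a lower effect at 7 than at 18 months at an unadjusted p under 0.05. For 0 of them it was higher, against 7.85% of all genes in either direction. Their median log2 fold change at 18 months was -0.03, with 12 above 0. Over all genes tested at 18 months, 8752 of 18196 lay above 0. Of the 30 factors, 19 had the same sign at both ages. At 18 months Fos was at -0.70, Nr4a1 at -0.35, Egr1 at -0.15 and Egr4 at -0.02. Glucocorticoid-response genes kept a positive median at 18 months, 0.33, with 25 of 26 above 0, and 21 of 26 had the same sign at both ages. Among them 7 had a higher and 4 a lower effect at 7 months at an unadjusted p under 0.05. Hif3a was at 6.06, 7.87 and 13.7 CPM in saline and 17.9, 21.7 and 20.9 CPM in nicotine at 18 months, a log2 fold change of 1.13. Npas4 was lower at both ages by similar amounts, -0.99 and -0.76 on the log2 scale, whereas Timp1 was at 2.18 and -0.32 (difference 2.50, SE 0.37, edgeR adjusted p = 0.133). Meningeal genes had a median of 0.40 at 18 months, opposite in sign to that at 7 months, and dentate granule cell genes one of 0.23. Myelin genes had a median of -0.18 at 18 months, with 1 of 24 above 0, and all 24 had the same sign at both ages. Over all 16853 genes tested at both ages, 47.5% had the same direction.

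**Figure D5:**
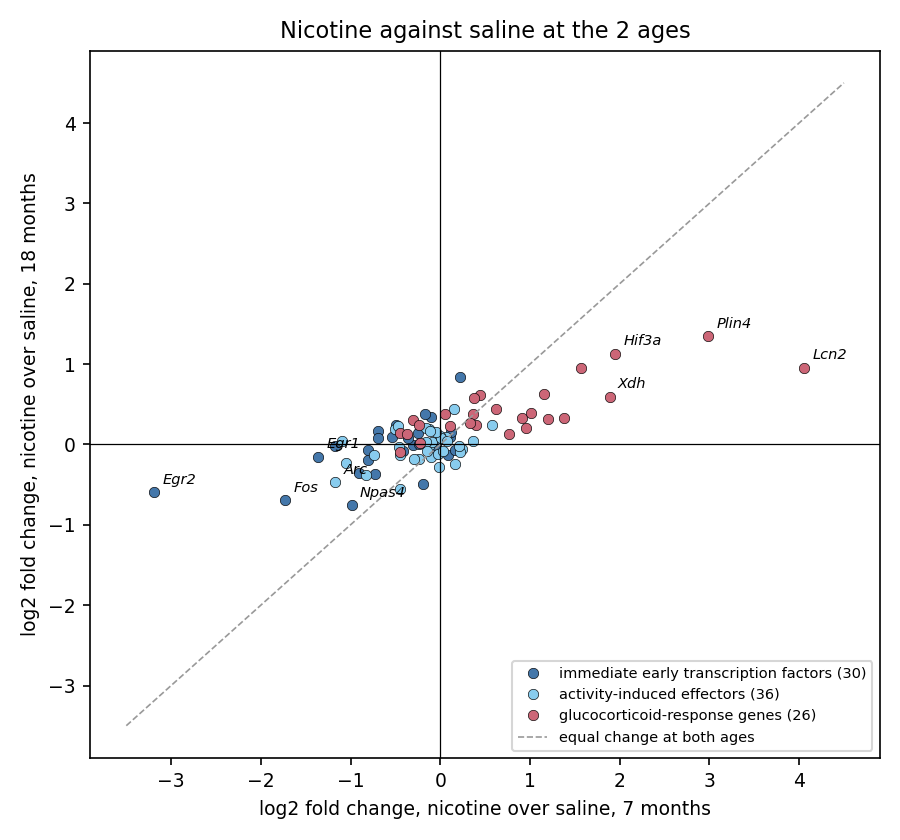
Log2 fold change of nicotine over saline at 7 months (x axis) and 18 months (y axis) for 30 immediate early factors, 36 activity-induced effectors and 26 glucocorticoid-response genes; each point is a gene and the dashed line marks equal change. Glucocorticoid-response genes such as Plin4 (2.98 and 1.35) are higher at both ages, and Egr2 (-3.19 and -0.60) lies far from the line.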

How the data were processed

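RNA from 6 hippocampus libraries of 7-month mice (3 saline, 3 nicotine) was compared, with 6 libraries of 18 months for the test between ages. The authors deposited raw fragment counts per gene in 1 table per age, with no normalization. The submitters' processing notes name TopHat and GRCm38. The counting tool, annotation and strand setting are not given in the sources used here, so that overlapping sense and antisense genes cannot be told apart. A kit for small RNA is named in the labels' protocol, although the tables count long genes.

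The counts were fitted in R 4.3.3 with edgeR 4.0.16, using TMM scaling, the filterByExpr filter and the quasi-likelihood F-test, and p-values were adjusted by Benjamini-Hochberg (threshold 0.05). SE values are the size of the log2 fold change over the root of F. CPM are scaled by TMM factors. Groups came from the labels. The nicotine effect was compared between ages by an interaction in 1 fit of 12 libraries (44760 genes of the same name in both tables). DESeq2 1.42.0, limma 3.58.1 (voom with sample weights), other scaling and filters, a replicate block, left-out libraries, the description prefix, and transcript length and GC offsets (spline, 4 df) were alternatives. The steps were tested on simulated data with no library apart from the others, where 4.26% of the calls at 7 months were false. Counts of 25071195 to 29245972 per library limit counting error alone. Replicate pairs within a group differed by more than sampling noise, with reduced chi-square of 20.2 to 106.

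Named genes were those that passed, the 12 smallest p in each direction (mean of at least 1 CPM, no predicted name, groups not overlapping), any list member with its values (fold change and p for at most the 6 of smallest p in a list described), and 13 further genes, apart from some members not reported here (Hif3a, Fkbp5, Npas4, Egr1, Fos, Arc, Cst7, Trem2, Gfap, Chrnb2, Chrna4, Chrna7, App). The members, the 45 gene lists and this rule were chosen with earlier results of these data known. Promoter windows came from RefSeq (GRCm38.p6).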

Additional observations from a re-analysis of the deposited data

Results flagged for a closer look

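Egr2 was picked out because the test of the difference between ages itself passed: its nicotine effect at 7 months minus that at 18 months was -2.59 on the log2 scale (edgeR's interaction test, adjusted p = 0.0346). It was lower in all 3 nicotine libraries than in all 3 saline libraries at both ages. With the replicate number as a block the same difference was -2.58 with an adjusted p of 0.448.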

How the results depend on the processing

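The count of 2 genes called at 7 months was 2 with RLE scaling and with transcript length and GC offsets, 6 with no filter, 83 with DESeq2, 9 with all 12 libraries in 1 fit, 15 with limma voom weights, 1 with the description prefix as a covariate, 0 in the libraries of the larger prefix (899 at unadjusted p under 0.05), 1 without saline library 2 and nicotine library 1 (neither Plin4 nor Egr2), and 5 without both libraries numbered 3. Leaving out 1 library gave 0 to 2 genes: 0 without saline 2, saline 3 or nicotine 1 (1519, 1677 and 980 at unadjusted p under 0.05), Plin4 alone without nicotine 2, Plin4 and Gm14292 without nicotine 3, and Plin4 and Egr2 without saline 1. A replicate block left 1 gene, Plin4 (adjusted p 0.029; Egr2 0.268). Departures of same-numbered libraries correlated at 0.09, -0.06 and -0.13, so numbers were not taken as pairs. The 1 gene that differed between ages became 36 with DESeq2, 0 with the replicate block (1218 at unadjusted p under 0.05) and 0 to 3 with 1 library left out (1 without the 7-month saline 1, 3 without saline 2, and 0 without any of the other libraries of either age); the cause was not tested.

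Of the 101 named genes followed, 6 turned sign under at least 1 alternative, and neither Plin4 nor Egr2 was among them. With 1 library left out, fold changes ran from -0.063 to 0.06 for App, -0.663 to 0.172 for Cst7, -0.189 to 0.219 for Gfap, -0.159 to 0.51 for Trem2 and -0.0892 to 0.0021 for Chrnb2. With length offsets App was at 0.229, Gfap at -0.0952 and Chrnb2 at 0.0635. With voom weights App was at 0.0509, Gfap at -0.152, Trem2 at -0.159 and Chrnb2 at 0.0174. Without saline 2 and nicotine 1 App was at 0.0622, Gfap at -0.173, Trem2 at -0.105, Chrnb2 at 0.0538 and Chrna7 at 0.003. Cst7 was at 0.299 in the larger prefix and 0.0987 without the libraries numbered 3.

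Common dispersion was 0.0417 at 7 months and 0.00956 at 18 months, although the 7-month libraries were the deeper ones. It was 0.0269 in the fit of 12 libraries used for the difference between ages.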

Other observations

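Other lists measured in the 7-month libraries gave few members at an unadjusted p under 0.05. Of 16 cytokine and NF-kB target genes, Cxcl12, a chemokine of vessels and the dentate gyrus, was at 55.8, 67.7 and 57.8 CPM in saline and 44.7, 37.3 and 44.8 CPM in nicotine. Socs3, the feedback inhibitor of cytokine signalling, was at 3.04, 1.30 and 1.85 CPM in saline and 3.20, 4.91 and 3.22 CPM in nicotine, and Bcl3 was at 1.00, 0.514 and 0.665 CPM in saline and 0.852, 2.42 and 2.15 CPM in nicotine. Groups did not overlap for Cxcl12 and Socs3 and overlapped for Bcl3. The median log2 fold change of 25 interferon genes was 0.14 with all libraries and -0.11 without saline library 2. Heat shock chaperones (24 genes) were at -0.03 in the median and the unfolded protein response (24 genes) at -0.04. These medians were -0.10 and -0.19 without nicotine library 1, and 0.01 and 0.07 without nicotine library 2.

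Among 20 monoamine receptors, Hrh3, the histamine H3 autoreceptor, was at 57.8, 49.4 and 47.4 CPM in saline and 66.3, 63.2 and 67.9 CPM in nicotine, without overlap. Of the growth factor list of 17 genes, Igfbp5 was at 142, 196 and 128 CPM in saline and 118, 111 and 90.6 CPM in nicotine, and Egf at 1.07, 1.34 and 1.11 CPM in saline and 1.70, 1.74 and 1.69 CPM in nicotine. Bche, butyrylcholinesterase, was at 3.44, 4.35 and 2.84 CPM in saline and 2.59, 1.78 and 2.61 CPM in nicotine, and Ache, acetylcholinesterase, at 58.3, 61.0 and 68.8 CPM in saline and 50.9, 70.9 and 69.5 CPM in nicotine.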
